A study of Mus musculus with 12 samples.

Results

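Precursor mRNA is cut and joined by the spliceosome, which is built from small nuclear ribonucleoproteins (snRNPs) and is guided by 2 large families of RNA-binding proteins, the SR proteins and the hnRNPs. The genes described here are those whose symbol starts with Hnrnp, Hnrp, Srsf, Sfrs, Snrp, Sf3a or Sf3b. On the array, 115 of 22626 probe sets carried one of these symbols and no other, and they stood for 44 of 12393 genes. Each gene was read from its probe set with the highest mean log2 signal over all arrays. A further 14 probe sets that list such a symbol along with other symbols were left out.

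The cells were mouse embryonic fibroblasts (MEFs) of strain C57BL/6 that all carried a lentivirus for M2rtTA, the transactivator through which doxycycline switches on the delivered genes. The negative control carried M2rtTA alone, TF group 1 also GATA4, TBX5 and MEF2C, TF group 2 those 3 factors with Mesp1 and SMARCD3, and TF group 3 those 5 factors with MYOCD and SRF. All 4 groups were kept in doxycycline for 7 days, and per the methods the medium also held valproic acid, an inhibitor of histone deacetylases, and additional serum. Each group had 3 arrays that the labels call biological replicates, and RNA came from the whole culture, so that cells without the viruses, where present, contribute to each value. The delivered factors were human cDNAs except mouse Mesp1, each on a lentivirus of its own. The source of the separate replicate cultures is not given in the sources used here, so p-values measure the spread between these arrays. In such bulk samples, fewer cells of a type and less RNA per cell cannot be told apart.

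An snRNP holds a small nuclear RNA inside a ring of Sm proteins together with proteins of its own. The U1 snRNP marks the start of an intron, and the U2 snRNP, with the SF3A and SF3B complexes, pairs with the branch point near its end. SR proteins bind exons through RNA recognition motifs and mostly favour their inclusion, whereas hnRNPs coat the nascent transcript and often act against them. Most genes of these families are expressed in every nucleated cell type.

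Arrays had a median signal of 131.4 to 149.3 and 20.4% to 24.2% of their probe sets under a signal of 32, and arrays of a group correlated with each other at 0.960 to 0.966 on the log2 scale. The 3 arrays a group limit the precision of every value. All 10 fibroblast markers were measured with a summed signal of 62493 to 65119 on the control arrays, 76459 to 82457 in TF group 1, 61018 to 63471 in TF group 2 and 60534 to 62346 in TF group 3. The 6 cardiomyocyte markers summed to 297 to 355 on the control arrays and to 1999 to 2131, 2411 to 2516 and 8314 to 9515 in TF groups 1, 2 and 3. Epithelial markers (5 of 5 measured) summed to 527 to 601 against 829 to 881, 850 to 904 and 731 to 779. Macrophage markers (7 of 7) summed to 413 to 530 on the control arrays and to 346 to 552 on the TF arrays, and endothelial markers (6 of 6) to 125 to 215 and 119 to 204. In the endothelial list, Pecam1 and Tie1 had a mean signal below 32 in every group, and the other markers of the list did not. In TF groups 1, 2 and 3, limma called 0, 2 and 3 fibroblast markers lower and 2, 1 and 0 higher, 2, 4 and 4 cardiomyocyte markers higher, and 1, 1 and 0 epithelial markers lower and 2, 1 and 2 higher. Of the macrophage markers 1 was called lower in TF group 1, and of the endothelial markers 1 was called higher there. Over all genes, 8.93%, 10.1% and 9.84% were called lower in TF groups 1, 2 and 3, and 15.1%, 15.3% and 14.7% higher. For the fibroblast, epithelial, macrophage and endothelial lists, counts this small are no result about a cell type.

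Of 10 listed markers of dividing cells, 9 were measured. All 9 were called lower in each TF group, beside 6.2% of all genes. Their log2 changes were -1.55 to -3.63 in TF group 1, -1.78 to -4.09 in TF group 2 and -1.45 to -3.84 in TF group 3. Their summed signal was 18821 to 19572 on the control arrays and 3597 to 4001, 2947 to 3213 and 3577 to 4168 on the arrays of TF groups 1, 2 and 3. Their part in the results below was not tested.

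The promoters of 4 members are shown first, since GATA4, TBX5, MEF2C and SRF, among the delivered factors, bind DNA themselves. No motif was searched for the other delivered factors, Mesp1, SMARCD3 and MYOCD. The sequences are RefSeq windows on GRCm38.p6 from 250 bases before to 50 bases after a start site that the RefSeq table gives for the gene, written 5′ to 3′ on the strand of the gene, with matches to 10 searched motifs in capitals. The start site was the outer edge of the annotated gene for Snrpa1 and Srsf3, and lay 192 and 23 bases inside it for Hnrnpd and Sf3b1. Snrpa1 and Hnrnpd had the lowest mean changes of all 44 genes, Srsf3 the lowest of the SR proteins, and Sf3b1, the branch point subunit of SF3B, was not called in any comparison.
Snrpa1 (chr7:66060086-66060385, plus strand): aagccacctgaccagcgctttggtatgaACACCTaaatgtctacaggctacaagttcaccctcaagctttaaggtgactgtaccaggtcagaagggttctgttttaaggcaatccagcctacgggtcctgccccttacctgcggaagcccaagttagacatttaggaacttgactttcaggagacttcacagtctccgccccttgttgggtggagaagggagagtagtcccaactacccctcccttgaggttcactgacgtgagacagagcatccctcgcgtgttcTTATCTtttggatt
Hnrnpd (chr5:99978889-99979188, minus strand): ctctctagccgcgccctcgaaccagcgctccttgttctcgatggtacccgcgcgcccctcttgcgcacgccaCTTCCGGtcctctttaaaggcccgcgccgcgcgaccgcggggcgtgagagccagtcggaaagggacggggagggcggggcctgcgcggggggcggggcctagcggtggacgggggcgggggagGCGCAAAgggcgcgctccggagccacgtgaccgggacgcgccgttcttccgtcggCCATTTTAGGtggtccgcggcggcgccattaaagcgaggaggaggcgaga
Srsf3 (chr17:29032410-29032709, plus strand): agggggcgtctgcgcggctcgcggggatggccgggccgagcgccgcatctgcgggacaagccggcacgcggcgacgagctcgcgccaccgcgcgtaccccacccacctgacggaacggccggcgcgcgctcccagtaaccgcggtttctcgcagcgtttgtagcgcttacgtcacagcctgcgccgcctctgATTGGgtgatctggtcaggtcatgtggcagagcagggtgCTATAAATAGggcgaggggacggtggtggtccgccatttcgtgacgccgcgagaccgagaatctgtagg
Sf3b1 (chr1:55027429-55027728, minus strand): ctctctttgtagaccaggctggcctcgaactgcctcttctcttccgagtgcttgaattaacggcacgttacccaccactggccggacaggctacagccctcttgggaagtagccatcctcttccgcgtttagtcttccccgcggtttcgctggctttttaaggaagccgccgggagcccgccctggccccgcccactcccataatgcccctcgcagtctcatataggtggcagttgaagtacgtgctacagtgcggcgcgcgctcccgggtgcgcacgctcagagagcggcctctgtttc
The capitals in the Snrpa1 window mark a T-box core (AGGTGT) and the letters AGATAA, to which GATA factors bind, both on the opposite strand. Those in the Hnrnpd window mark CCGGAAG, an ETS site, and TTNGCGC, an E2F site, both on the opposite strand, and a CArG box, the element that SRF binds. Those in the Srsf3 window mark CCAAT, the NF-Y site, on the opposite strand and CTATAAATAG, letters that match the pattern searched for MEF2. The Sf3b1 window held none of the 10 motifs. A match is a description of the letters in the window, and binding of a factor there was not tested.

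Of the 44 genes, 39 had such a window, and motifs were searched on both strands. The start site was the outer edge of the annotated gene for 18 of the 39 and lay inside it for the others, by 2344 bases for Hnrnpl. For the 8 genes with several windows the first listed was used. The ETS letters were in 15 of the 39 windows (38.5%), against 15% of 9883 windows of genes on the array and 9.12% of all 27025 windows. TTNGCGC was in 10 windows (25.6%, against 9.96% and 6.47%), TTCCCGC, another E2F form, in 5 (12.8%, against 7.29% and 4.66%) and CCAAT in 19 (48.7%, against 38.1% and 37.9%). The CHR element TTTGAA was in 6 windows (15.4%, against 13% and 18.1%) and the NRF1 site GCATGCGC in 0 (against 4.56% and 2.8%). Of the motifs searched for delivered factors, AGATAA was in 4 (10.3%, against 7.83% and 11.4%) and AGGTGT in 3 (7.69%, against 11.9% and 13.9%). The MEF2 element was in 2 (5.13%, against 1.97% and 3.26%) and the CArG box in 1 (2.56%, against 1.53% and 1.57%). Counts this small are no result about the genes. Between the 17 windows of genes called lower in at least 1 TF group and the 22 of genes that were not, the ETS letters stood in 6 and 9, TTNGCGC in 2 and 8, TTCCCGC in 3 and 2 and CCAAT in 8 and 11. Of the motifs searched for delivered factors, AGATAA stood in 1 and 3, AGGTGT in 1 and 2, the MEF2 element in 1 and 1 and the CArG box in 1 and 0.

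How the splicing machinery stood after delivery of the factors was read from the comparisons of the TF groups with the negative control. Of the 44 genes, 15 were called lower and 0 higher in TF group 1, 18 lower and 0 higher in TF group 2, and 17 lower and 1 higher in TF group 3. At an unadjusted p under 0.05, 1, 1 and 3 were higher, beside 28.9%, 28.6% and 28.3% of all genes. For a call, the limma adjusted p had to be under 0.05 with a fold change of more than 1.5. Over all 12393 genes the shares called lower were 8.93%, 10.1% and 9.84%, and the shares called higher were 15.1%, 15.3% and 14.7%. In all 3 TF groups 14 of the 44 genes were called lower, against 6.2% of all genes. At the adjusted p alone, 36 were lower in each comparison, against 18%, 19.3% and 19% of all genes, and 0, 1 and 2 were higher, against 25.4%, 25% and 24.7%.

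The median log2 change of the 44 genes was -0.43 in TF group 1, -0.48 in TF group 2 and -0.47 in TF group 3, beside medians of 0.07, 0.06 and 0.05 over all genes. A negative change was found for 40, 39 and 41 of the 44 genes. For 36 of them all 9 TF arrays lay below every control array, as they did for 16.1% of all genes. The 3 comparisons share the control arrays, so their counts are not independent of each other. The genes called lower were of several families, and 25 of the 44 were called lower in none of the comparisons.

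**Figure D1:**
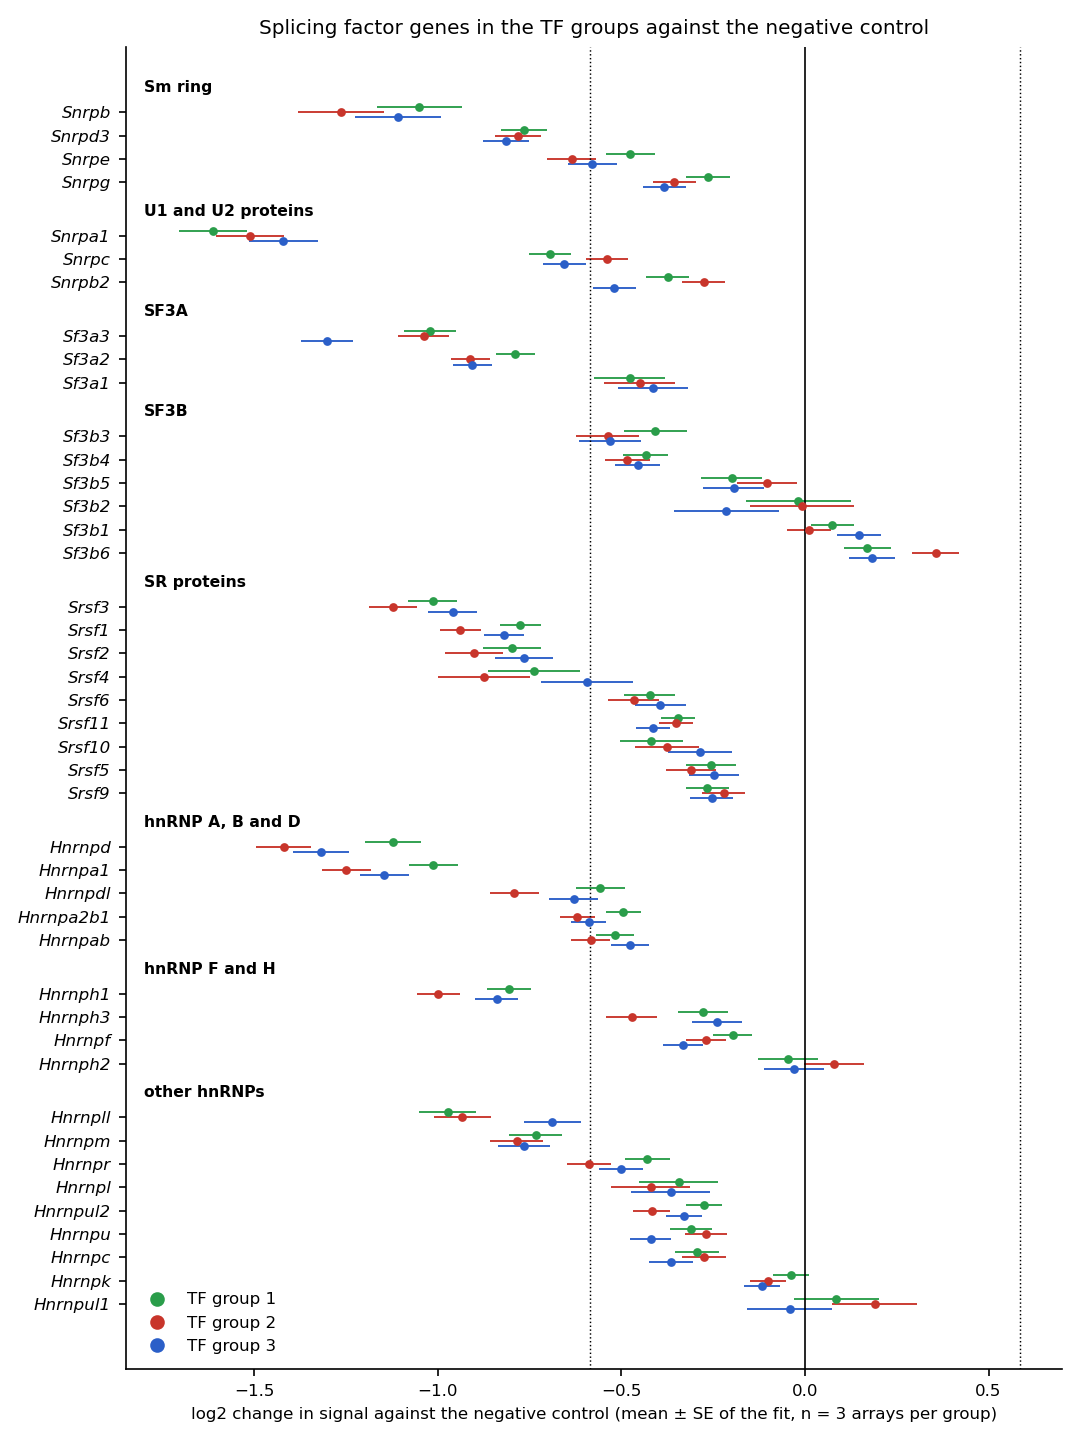
Log2 change in signal against the negative control for 43 splicing factor genes by family (points, change; bars, SE of the fit; colours, TF groups; dotted lines, a fold change of 1.5). Most points lie left of 0, those of Snrpa1 and Hnrnpd farthest, and those of the SF3B genes lie on both sides of it. Snrpn, read at a dim signal, is left out.

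**Figure D2:**
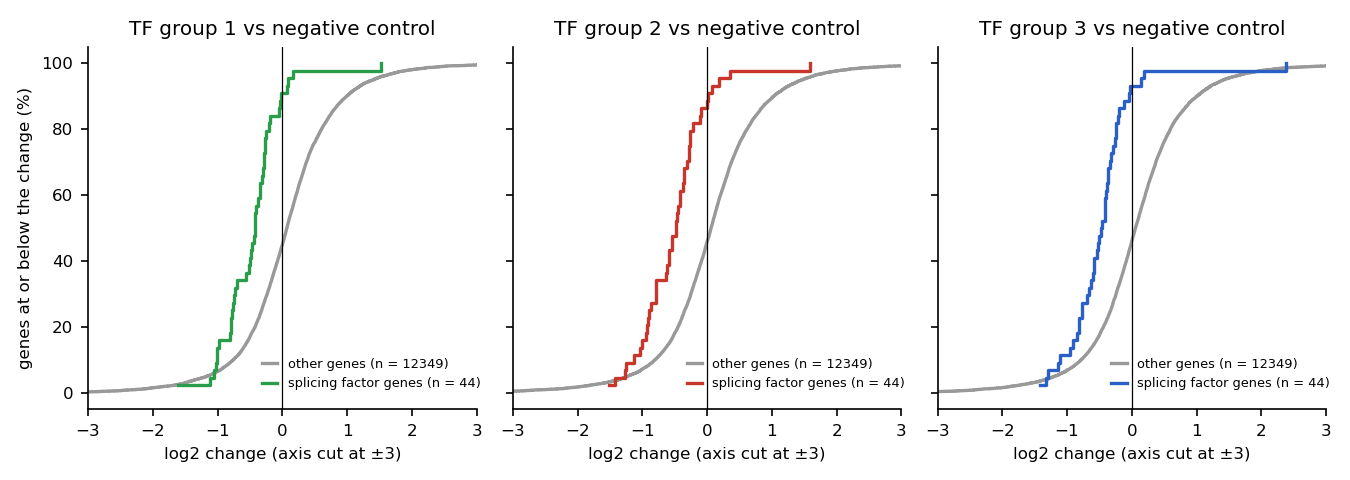
Cumulative share of genes (vertical axis, percent) at or below each log2 change (horizontal axis) for the 44 splicing factor genes (colour) and all other genes (grey), 1 panel per TF group. The coloured curves lie left of the grey ones over most of their course, with medians of -0.43, -0.48 and -0.47.

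The position of the all-gene median depends on how arrays are put on one scale. The 24 probe sets of the poly-A spike controls, RNAs that can be added to a sample, were higher on the TF arrays. The differences were 0.90, 0.74 and 0.79 in TF groups 1, 2 and 3 (log2). The mean log2 signal of these probe sets was 7.79, 6.99 and 7.26 on the 3 control arrays and 8.03 to 8.28 on the TF arrays. The spike level of the control, and so the size of this shift, is imprecise, and the methods do not mention spikes. With the arrays centred on these spikes, the median of all genes was -0.83, -0.68 and -0.74 and that of the 44 genes -1.32, -1.22 and -1.26, and 43, 41 and 43 of the 44 were called lower. Calls over all genes in TF group 1 then split into 6854 lower and 339 higher, in place of 1107 and 1867. Centring shifts all genes of an array alike and leaves the distance between the median of the 44 genes and that of all genes as it was, at -0.49, -0.54 and -0.52. With quantile normalization, which can move it, the distance was -0.41, -0.49 and -0.42.

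Among the proteins that belong to the U1 and U2 snRNPs, the U2 protein gene Snrpa1 had the largest decrease of all 44 genes. Snrpa1 encodes the A′ protein of the U2 snRNP, which binds the U2 snRNA as a pair with the Snrpb2 protein. Snrpa1 gave a signal of 2566, 3139 and 2838 on the control arrays, against 920.4, 957 and 909 (TF group 1), 971, 925 and 1100.3 (TF group 2) and 1128, 1058 and 999 (TF group 3). No TF array came near the control arrays, and the TF arrays lay close together. Snrpa1 was 3.06-fold, 2.85-fold and 2.68-fold lower in TF groups 1, 2 and 3 (log2 changes of -1.61, -1.51 and -1.42, SE 0.093, adjusted p of 1.23e-06, 1.38e-06 and 2.23e-06). Its 3 probe sets were all called lower in each TF group, with log2 changes between -1.42 and -1.89.

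Snrpb2, the partner of Snrpa1 in the U2 snRNP, was lower by less than the fold threshold. On the control arrays the signal of Snrpb2 was 1519, 1557 and 1515, and on the TF arrays it was 1164, 1255 and 1127 (TF group 1), 1281, 1280.1 and 1232 (TF group 2) and 1048, 1114 and 1042 (TF group 3). All TF arrays lay below the control arrays, and the changes were -0.37, -0.28 and -0.52 (SE 0.058, adjusted p of 0.000642, 0.00385 and 7.73e-05). A second probe set of nearly the same mean signal was called lower in all 3 TF groups at -0.75, -0.74 and -0.68, and a dim further one had changes of 0.58, 0.53 and 0.52 that were not called.

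Snrpc encodes the C protein of the U1 snRNP, which helps the U1 snRNP hold the start of an intron. The control arrays read 2056, 2254 and 2252 for Snrpc, while TF group 1 read 1326, 1319 and 1408, TF group 2 1517, 1517 and 1479 and TF group 3 1349, 1427 and 1389. The control arrays were the 3 highest, and TF group 2 lay above the other TF groups. Snrpc was called lower in TF groups 1 and 3 (log2 changes of -0.69 and -0.65, SE 0.058). In TF group 2 its change of -0.54 passed the adjusted p (5.52e-05) and stayed under the fold threshold.

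The Sm ring genes did not change by one amount. Snrpb, which encodes the Sm proteins B and B′, was the lowest. For Snrpb the signals were 2607, 2889 and 2634 (negative control), 1351, 1287 and 1286 (TF group 1), 1247, 912 and 1262 (TF group 2) and 1241, 1230.5 and 1298 (TF group 3). Array 2 of TF group 2 stood below the others of its group, and no TF array overlapped the controls. The log2 changes were -1.05, -1.26 and -1.11 (SE 0.116), and Snrpb was called lower in each TF group.

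Snrpd3, the gene of Sm protein D3, was called lower in all 3 TF groups at its brightest probe set. Signals of Snrpd3 on the single arrays were 4412, 4747 and 4548 (control), 2768, 2730.4 and 2566 (TF group 1), 2756, 2512 and 2708 (TF group 2) and 2494, 2602 and 2699 (TF group 3). The control arrays lay above all TF arrays, and the arrays of the 3 TF groups overlapped each other, with changes of -0.77, -0.78 and -0.81 (SE 0.063). Its other probe sets were dim (mean log2 signal of 6.96 and 6.11) and went another way. The first had changes of 0.26, 0.20 and 0.00, and the dimmer one of 0.54, 0.89 and 0.09 and was called higher in TF group 2. With the mean of the 3 probe sets in place of the brightest, the changes of Snrpd3 were 0.01, 0.10 and -0.24 and no comparison was called.

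Snrpe (Sm protein E) was called lower in TF group 2 at -0.64 (SE 0.066), while its changes of -0.48 and -0.58 in TF groups 1 and 3 stayed under the fold threshold. Without control replicate 1 or replicate 2 of TF group 3, Snrpe was called lower in TF group 3 as well (-0.61 and -0.59). The 3 control arrays gave 6857, 7573 and 7119.7 for Snrpe, TF group 1 gave 5189, 5247 and 5052, TF group 2 4512, 4358 and 5015 and TF group 3 4755, 4872 and 4788. Snrpg (Sm protein G) was lower at the adjusted p in each TF group, by -0.26, -0.36 and -0.38 (SE 0.059), and was not called. Both genes had all TF arrays below all control arrays.

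Snrpn was the only one of the 44 genes called higher in any comparison. It encodes SmN, a relative of SmB that is made mainly in brain and heart, from an imprinted gene read from the paternal allele. Snrpn gave a signal of 4.4, 27 and 5 on the control arrays, against 28.7, 33.6 and 14.8 (TF group 1), 32.9, 12.9 and 37.8 (TF group 2) and 30.6, 59 and 45.6 (TF group 3). Most of these values lay below 32, and array 2 of the control overlapped the arrays of TF groups 1 and 2. Snrpn was called in TF group 3 (log2 change of 2.37, SE 0.71, adjusted p of 0.0242). Against a control level set to 32, the mean of TF group 3 was 1.36-fold higher, a value without allowance for spread. Array 1 of that group, at 30.6, lay below 32. The changes of 1.53 and 1.59 in TF groups 1 and 2 were not called (adjusted p of 0.123 and 0.11). Without control replicate 2, Snrpn was called in TF groups 1 and 2 as well (2.37 and 2.43). The call in TF group 3 was lost without control replicate 1 (1.91) or 3 (2.00), and without replicate 2 (2.15) or 3 (2.34) of TF group 3.

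**Figure D3:**
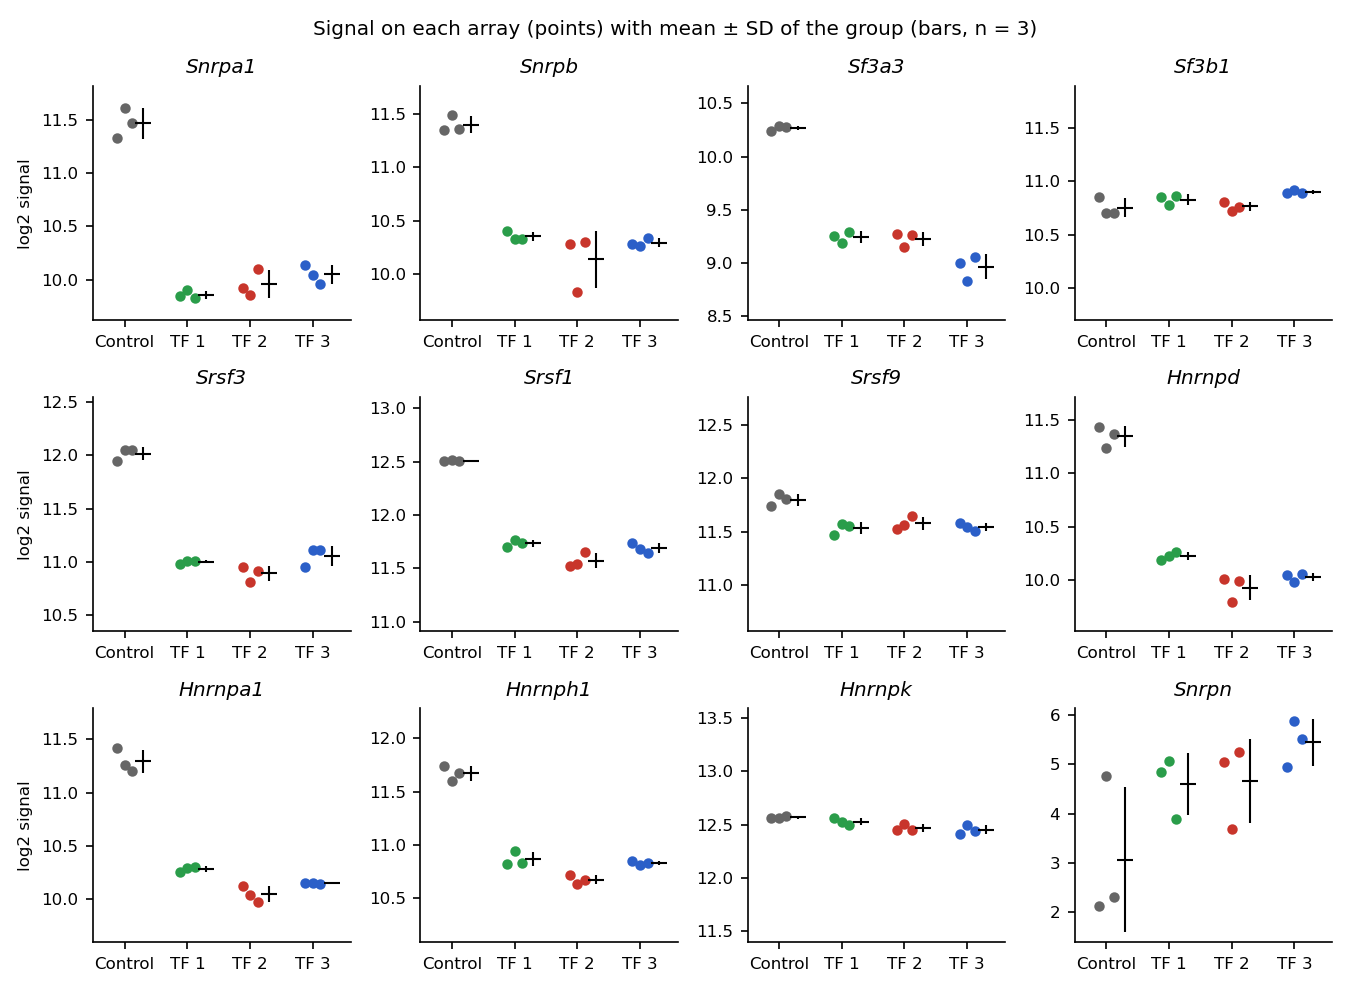
Log2 signal on each of the 12 arrays (points) for 12 splicing factor genes, with the mean and SD of each group of 3 (black); each vertical axis spans at least 2.2 log2 units and does not start at 0. The control points of Snrpa1, Snrpb, Sf3a3, Srsf3, Srsf1, Hnrnpd, Hnrnpa1 and Hnrnph1 stand above all TF points, as do those of Srsf9 by less. The control points of Sf3b1 and Hnrnpk overlap with or lie beside the TF points, and those of Snrpn scatter from 2.1 to 4.8.

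The complexes SF3A and SF3B join the U2 snRNP on the branch point together. Of the 3 SF3A genes, Sf3a2 and Sf3a3 were called lower in each TF group, and of the 6 SF3B genes none was called lower in any (0, 0 and 0 by limma), beside 8.93%, 10.1% and 9.84% of all genes. At the adjusted p alone 2 SF3B genes were lower in each TF group, and at an unadjusted p under 0.05 3, 2 and 3 were (21%, 22.1% and 21.9% of all genes). With 6 genes, 0 called lower is near the 8.93%, 10.1% and 9.84% of all genes and is no result about SF3B. The difference between the complexes was not tested. On the control arrays the signal of Sf3a3 was 1212, 1248 and 1238, and on the TF arrays it was 612, 583 and 627 (TF group 1), 619, 568 and 614 (TF group 2) and 512, 457 and 535 (TF group 3). TF group 3 was the lowest of the 4 groups. The log2 changes of Sf3a3 were -1.02, -1.04 and -1.30 (SE 0.070, adjusted p of 3.47e-06, 2.60e-06 and 7.36e-07), and its second probe set was called lower in each TF group at -0.89, -0.84 and -0.88.

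Sf3a2, another subunit of SF3A, had somewhat smaller changes. The control arrays read 3188, 3164 and 3396 for Sf3a2, while TF group 1 read 1914, 1844 and 1883, TF group 2 1697, 1733 and 1751 and TF group 3 1711, 1688 and 1804. The changes were -0.79, -0.91 and -0.91 (SE 0.053), with no overlap between control and TF arrays. Its second probe set, with a mean log2 signal of 7.14, had changes of -0.40, -0.45 and -0.52 that were not called. Sf3a1 was lower at the adjusted p, by -0.48, -0.45 and -0.41 (SE 0.096), and was not called.

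In SF3B, Sf3b1 is the scaffold that encloses the branch point. For Sf3b1 the signals were 1854, 1667 and 1673 (negative control), 1854, 1752 and 1859 (TF group 1), 1793, 1695 and 1738 (TF group 2) and 1904, 1942 and 1897 (TF group 3). The arrays of TF groups 1 and 2 overlapped those of the control, and those of TF group 3 lay just above them. The 95% intervals of its log2 changes were -0.06 to 0.21, -0.12 to 0.14 and 0.01 to 0.28 in TF groups 1, 2 and 3. None of its 3 probe sets was called.

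Sf3b6 encodes p14, which touches the branch point adenosine. Signals of Sf3b6 on the single arrays were 1641, 1809.8 and 1667 (control), 1859.7, 1975 and 1919.8 (TF group 1), 2152, 2201 and 2191 (TF group 2) and 1977, 2025 and 1807 (TF group 3). All arrays of TF groups 1 and 2 lay above the controls, and in TF group 3 array 3 lay inside the range of the control. The changes of 0.17, 0.36 and 0.18 (SE 0.064) passed the adjusted p in TF groups 2 and 3 (0.00145 and 0.0465) and were all under the fold threshold. Sf3b3 (-0.41, -0.54 and -0.53) and Sf3b4 (-0.43, -0.48 and -0.46) were lower at the adjusted p in each TF group, by amounts close to those of Sf3a1, and Sf3b5 (-0.20, -0.10 and -0.19) and Sf3b2 (-0.02, -0.01 and -0.21) did not pass it. Phf5a, an SF3B subunit whose symbol is outside the families above, was called lower in each TF group at -0.92, -0.86 and -0.86.

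All 9 SR genes were lower at the adjusted p in each TF group, beside 18%, 19.3% and 19% of all genes. Of the 9, 4 were called lower in each TF group, beside 6.2% of all genes. These were Srsf1, Srsf2, Srsf3 and Srsf4. The 3 control arrays gave 3935, 4244 and 4252 for Srsf3, TF group 1 gave 2023, 2064 and 2066, TF group 2 1979.5, 1801 and 1933 and TF group 3 1980.1, 2213 and 2205. Srsf3, the smallest SR protein, had changes of -1.01, -1.12 and -0.96 (SE 0.066), and the TF arrays lay well below the control arrays. Of its 6 probe sets, 5 were called lower in each TF group and the dimmest (mean log2 signal of 6.94) had changes of -0.06, -0.14 and -0.07.

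Srsf1, the founding SR protein, also known as SF2/ASF, promotes the choice of proximal splice sites. Srsf1 gave a signal of 5802, 5861 and 5821 on the control arrays, against 3326, 3488 and 3407 (TF group 1), 2937, 2975 and 3219.9 (TF group 2) and 3421, 3285 and 3204 (TF group 3). The control arrays lay close together and no TF array overlapped them. The changes were -0.77, -0.94 and -0.82 (SE 0.056).

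Srsf2 (SC35), which marks nuclear speckles, was called lower in each TF group as well. On the control arrays the signal of Srsf2 was 5707, 4735 and 5100.3, and on the TF arrays it was 2905, 2968 and 3039 (TF group 1), 2657, 2851 and 2789 (TF group 2) and 3253, 2864 and 3017 (TF group 3). Its changes were -0.80, -0.90 and -0.76 (SE 0.079), with control array 1 above the other control arrays and all TF arrays below them. Srsf4 was lower by -0.74, -0.87 and -0.59, with a larger SE of 0.125, and in TF group 3 its fold of 1.51 was just past the threshold. The control arrays read 942, 981 and 984 for Srsf4, while TF group 1 read 537, 616 and 590.3, TF group 2 424, 560.1 and 623 and TF group 3 667, 633 and 628. The call of Srsf4 in TF group 3 was lost without control replicate 2 or 3 (both -0.58) and without replicate 2 or 3 of that group (both -0.58).

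The other SR genes lay between no change and the fold threshold. Srsf6 had changes of -0.42, -0.47 and -0.39 (SE 0.069), Srsf10 of -0.42, -0.38 and -0.29 (SE 0.087) and Srsf11 of -0.35, -0.35 and -0.41 (SE 0.047). Srsf9 (-0.27, -0.22 and -0.25) and Srsf5 (-0.26, -0.31 and -0.25) were the SR genes with the smallest changes. One probe set of Srsf10 was called lower in each TF group at -0.92, -0.88 and -0.68, while its other 3, that of the gene value included, were not called.

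The hnRNPs of the A, B and D types share a pair of RNA recognition motifs. All 5 were lower at the adjusted p in each TF group, beside 18%, 19.3% and 19% of all genes. Hnrnpd and Hnrnpa1 were called lower in all 3, as were 6.2% of all genes. Hnrnpd encodes AUF1, which binds AU-rich elements and steers mRNA decay. For Hnrnpd the signals were 2763, 2418 and 2641 (negative control), 1166, 1193 and 1231 (TF group 1), 1028, 884 and 1014 (TF group 2) and 1059, 1013 and 1062 (TF group 3). The control arrays stood apart from all others, and TF group 1 lay above TF groups 2 and 3. Hnrnpd was 2.18-fold, 2.68-fold and 2.49-fold lower (log2 changes of -1.12, -1.42 and -1.32, SE 0.076, adjusted p of 3.09e-06, 5.63e-07 and 1.05e-06).

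Hnrnpa1, the best known antagonist of SR proteins at splice sites, was close to it. Signals of Hnrnpa1 on the single arrays were 2736, 2455 and 2365 (control), 1221, 1251 and 1267 (TF group 1), 1116, 1051 and 1007 (TF group 2) and 1141, 1138 and 1131 (TF group 3). The changes were -1.01, -1.25 and -1.15 (SE 0.067), with no overlap between control and TF arrays. This value came from an _x_at probe set, a kind with probes that can also bind other transcripts. Another probe set of the gene had -0.56, which was not called, in TF group 1 and was called lower at -0.80 and -0.76 in TF groups 2 and 3.

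Hnrnpdl, a relative of Hnrnpd, was called lower in TF groups 2 and 3 (-0.79 and -0.63, SE 0.067), and its change of -0.56 in TF group 1 stayed under the fold threshold. The 3 control arrays gave 4421, 4716 and 5087 for Hnrnpdl, TF group 1 gave 3171, 3183 and 3298, TF group 2 2701, 2725 and 2781 and TF group 3 3188, 2865 and 3135. Its call in TF group 3 was lost when control replicate 3 or replicate 2 of that group was left out (both -0.58), and when control replicate 1 was left out it was called in TF group 1 (-0.61).

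Hnrnpa2b1, which has roles in both splicing and mRNA transport, followed the same order of groups. Hnrnpa2b1 gave a signal of 5667, 5579 and 5701 on the control arrays, against 3934, 4141 and 3959 (TF group 1), 3604, 3679 and 3745 (TF group 2) and 3752, 3764 and 3750.5 (TF group 3). The TF arrays lay close together below the controls. It was called lower in TF groups 2 and 3 (-0.62 and -0.59, SE 0.047) and not in TF group 1 (-0.49), and without control replicate 3 the call in TF group 3 was lost (-0.58). Of its other 3 probe sets, those with the next highest signals were called lower in each TF group (-0.72, -0.60 and -0.65, and -0.85, -0.75 and -0.76).

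Hnrnpab was not called at the probe set that stands for it. On the control arrays the signal of Hnrnpab was 7709, 7484 and 7726, and on the TF arrays it was 5557, 5079 and 5389 (TF group 1), 5157, 5096 and 5038 (TF group 2) and 5373, 5546 and 5553 (TF group 3). Its changes of -0.52, -0.58 and -0.48 (SE 0.052) passed the adjusted p and lay at or just under the fold threshold. Without control replicate 2 or replicate 1 of TF group 2 it was called lower in TF group 2 (-0.60 and -0.59). Of its 7 probe sets 5 were called lower in each TF group, with changes from -0.60 to -1.33, whereas another, nearly as bright as the first, had 0.31, 0.04 and -0.13.

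The hnRNPs F and H bind runs of G in the transcript. Hnrnph1 was called lower in each TF group, and Hnrnph2, Hnrnph3 and Hnrnpf in none. With 4 genes, 1 called lower in all 3, beside 6.2% of all genes, is no result about the family. The control arrays read 3417, 3106 and 3266 for Hnrnph1, while TF group 1 read 1813, 1966 and 1820.1, TF group 2 1679, 1585 and 1634 and TF group 3 1849, 1801 and 1815. The changes of Hnrnph1 were -0.81, -0.998 and -0.84 (SE 0.059), and TF group 2 was the lowest group. Hnrnph3 had changes of -0.28, -0.47 and -0.24 (SE 0.068) and passed the adjusted p alone, while Hnrnph2, a close relative encoded on the X chromosome, had -0.05, 0.08 and -0.03 (95% intervals of -0.23 to 0.14, -0.11 to 0.26 and -0.21 to 0.16).

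Hnrnpf had changes of -0.20, -0.27 and -0.33 (SE 0.054) at its brightest probe set. For Hnrnpf the signals were 7851, 7572 and 7617 (negative control), 6968, 6629 and 6508 (TF group 1), 6056, 6553 and 6505 (TF group 2) and 6027, 6092 and 6180.3 (TF group 3). All TF arrays lay below the controls. A dimmer probe set of Hnrnpf (mean log2 signal of 9.55) was called lower in each TF group at -0.67, -0.77 and -0.69, so the size of its change depends on the probe set read.

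Of the 9 other hnRNPs, Hnrnpll and Hnrnpm were called lower in each TF group, beside 6.2% of all genes. So small a count is no result about these hnRNPs. Hnrnpll regulates the splicing of CD45 in lymphocytes. Signals of Hnrnpll on the single arrays were 2047, 1801 and 1844 (control), 868, 1003 and 1032 (TF group 1), 1004, 967 and 1007 (TF group 2) and 1194, 1182 and 1151 (TF group 3). TF group 3 lay above the other TF groups. The changes were -0.97, -0.93 and -0.69 (SE 0.078), and its second probe set, of nearly the same mean signal, had -0.47, -0.35 and -0.31 and was not called.

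Hnrnpm, which binds G- and U-rich RNA, had changes of -0.73, -0.78 and -0.76 (SE 0.072) from its only probe set. The 3 control arrays gave 1305, 1156 and 1127 for Hnrnpm, TF group 1 gave 685, 760.2 and 710.4, TF group 2 724, 670.3 and 686 and TF group 3 719, 702 and 687. The control arrays lay well above all TF arrays. Hnrnpr was called lower in TF group 2 at -0.59 (SE 0.061), which is at the fold threshold, and had -0.43 and -0.50 in TF groups 1 and 3. The call was lost without control replicate 1 (-0.57) or without replicate 2 (-0.56) or 3 (-0.58) of TF group 2.

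Hnrnpl, Hnrnpul2, Hnrnpu and Hnrnpc passed the adjusted p in each TF group and were not called. Hnrnpl, which binds CA repeats, had changes of -0.34, -0.42 and -0.37 (SE 0.108). Hnrnpu, which organises chromatin, had -0.31, -0.27 and -0.42 (SE 0.057), Hnrnpc, which binds runs of U, -0.29, -0.27 and -0.36 (SE 0.060), and Hnrnpul2 -0.28, -0.42 and -0.33 (SE 0.050).

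Hnrnpk, which binds runs of C and also acts in transcription and translation, was nearly level. Hnrnpk gave a signal of 6033, 6057 and 6133 on the control arrays, against 6052, 5907 and 5782 (TF group 1), 5584, 5823 and 5599 (TF group 2) and 5461, 5783 and 5554 (TF group 3). One array of TF group 1 lay inside the range of the control, and those of TF groups 2 and 3 lay below it. The 95% intervals of its log2 changes were -0.15 to 0.07, -0.21 to 0.01 and -0.23 to -0.01, and the adjusted p did not pass (0.588, 0.144 and 0.0893). Hnrnpul1 had 0.08, 0.19 and -0.04 (SE 0.116) and did not pass either.

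Other probe sets of the genes were read as well. Beside the 44 probe sets that stand for the genes, 71 others belong to them. Of these, 28, 32 and 32 were called lower in TF groups 1, 2 and 3, against 9.06%, 9.98% and 9.36% of all probe sets, and 0, 1 and 0 were called higher, against 13.6%, 13.7% and 13.6%. Their median log2 changes were -0.47, -0.57 and -0.54, and 59, 60 and 61 of the 71 were negative. Probe sets of a gene share its transcripts and are not independent of each other.

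**Figure D4:**
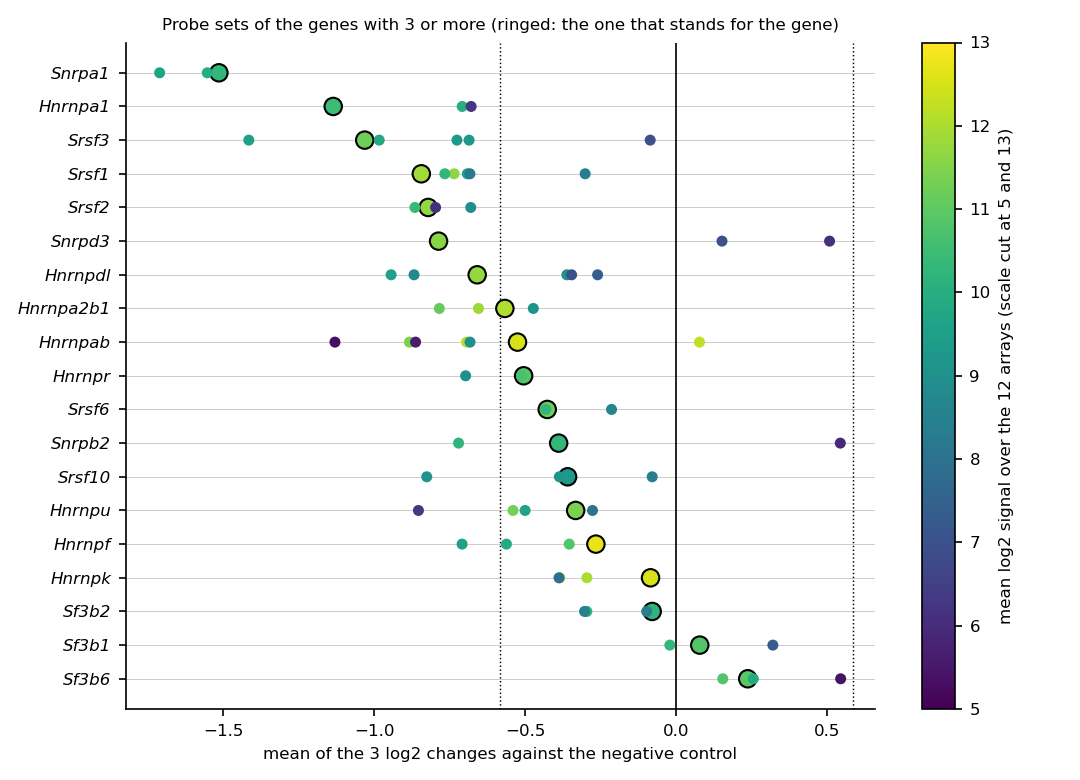
Mean of the 3 log2 changes against the negative control (horizontal axis) for every probe set of the genes with 3 or more (rows), coloured by mean log2 signal; large ringed points stand for the gene and dotted lines mark a fold change of 1.5. The 3 probe sets of Snrpa1 lie together, while those of Snrpd3, Hnrnpab and Snrpb2 lie on both sides of 0.

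Nearly all of these genes were bright on the array, so the called ones were also set beside genes of like signal. With a mean log2 signal between 9 and 11 lay 23 of the 44 genes, of which 8 were called lower in all 3 TF groups, beside 8.25% of 2812 genes. Above 11 lay 19, of which 6 were called lower in all 3, beside 5.6% of 1036 genes. Of the other members, 1 lay between 7 and 9 (10.4% of 3272 genes) and 1, Snrpn, below 5 (0.674% of 2522 genes), and neither was called lower in all 3. No member lay between 5 and 7, where 4.43% of 2751 genes were called lower in all 3.

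Whether the added factors changed the picture was asked by comparing the TF groups with each other. None of the 44 genes was called between any 2 TF groups by limma (0, 0 and 0 for TF group 2 against 1, 3 against 2 and 3 against 1), beside 3.87%, 4.03% and 6.31% of all genes. At an unadjusted p under 0.05, 13, 10 and 5 of the 44 passed, beside 21.7%, 23.7% and 29.2% of all genes. An unmoderated model at its unadjusted p with the same fold threshold called 0, 0 and 0. At the adjusted p alone 1, 1 and 2 passed, beside 8.22%, 9.94% and 15.3% of all genes. These were Hnrnpd, with a difference of -0.30 (SE 0.076) for TF group 2 against 1, Snrpb2, with -0.24 (SE 0.058) for TF group 3 against 2, and Sf3a3 and Hnrnpll, with -0.28 (SE 0.070) and 0.28 (SE 0.078) for TF group 3 against 1. The median difference over the 44 genes was -0.06, 0.05 and -0.04. A difference that misses these thresholds does not show that the groups were alike.

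Other genes of mRNA processing were read from lists of their own. Their counts stand beside the shares of all genes called lower (8.93%, 10.1% and 9.84% in TF groups 1, 2 and 3, 6.2% in all 3) and higher (15.1%, 15.3% and 14.7%). Of 62 measured genes of the core spliceosome outside the families above (75 listed), 10, 11 and 13 were called lower in TF groups 1, 2 and 3 and 2, 2 and 1 higher, with median log2 changes of -0.32, -0.33 and -0.32. In all 3 TF groups 8 of the 62 were called lower, beside 6.2% of all genes. Lsm2 (-1.42, -1.82 and -1.88) and Lsm3 (-1.38, -1.34 and -1.37), parts of the ring on the U6 snRNA, and U2af1 (-0.94, -1.02 and -1.05), which reads the end of the intron, had the largest decreases. Crnkl1, a protein of the catalytic spliceosome, was called higher in each TF group (0.80, 0.69 and 0.72), and Prpf6, a protein of the tri-snRNP, in TF groups 1 and 2 (0.66 and 0.63) and not in TF group 3 (0.51).

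Of 37 measured regulators of splicing outside the families (46 listed), 12, 15 and 14 were called lower and 2, 2 and 2 higher, with medians of -0.36, -0.50 and -0.44. In all 3 TF groups 12 of the 37 were called lower, beside 6.2% of all genes. Celf2 (-1.21, -1.17 and -1.08), a regulator known from heart and brain, Ilf2 (-0.97, -1.20 and -0.70) and Tardbp (-0.97, -0.89 and -0.97), the gene of TDP-43, were the lowest. Rbfox1, a regulator of muscle and neuronal exons, was called higher in each TF group (1.48, 1.11 and 1.24). Rbm38 was called higher in TF groups 1 and 2 (0.68 and 0.64), and Khdrbs3 in TF group 3 (0.80) and not in TF groups 1 and 2 (-0.26 and -0.31).

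SR proteins are phosphorylated by kinases of their own, and of 10 genes of these kinases and of SR protein import, 1, 1 and 0 were called lower and 1, 2 and 0 higher (medians of -0.15, -0.20 and -0.23). With so few genes these counts are near the shares of all genes, 8.93%, 10.1% and 9.84% lower and 15.1%, 15.3% and 14.7% higher, and are no result about the list. Srpk1, the main kinase of SR proteins, was called lower in TF groups 1 and 2 (-0.66 and -0.65) and not in TF group 3 (-0.45). Srpk2 was called higher in TF group 2 (0.62) and not in the others (0.56 and 0.57), and Srpk3, a kinase of muscle, in TF groups 1 and 2 (0.96 and 0.66, from a dim control mean of 4.90 on the log2 scale) and not in TF group 3 (0.41).

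Sm rings are put on snRNA by the SMN complex, and of 11 measured genes of snRNP assembly (15 listed), 4, 3 and 2 were called lower and 0 higher, with medians of -0.40, -0.32 and -0.31. Gemin2 (-0.99, -1.45 and -1.28) and Ddx20 (-0.94, -0.83 and -0.98), both of the SMN complex, were called lower in each TF group, and Smn1 in TF groups 1 and 2 (-0.71 and -0.62) and not in TF group 3 (-0.12). Of 16 measured genes of cleavage and polyadenylation (18 listed), 2, 3 and 2 were called lower and 0 higher, with medians of -0.23, -0.22 and -0.21. The counts called lower are near the shares of all genes, 8.93%, 10.1% and 9.84%, and are no result about the list. Single genes are given as values. Nudt21, which sets the choice of polyadenylation site, was called lower in each TF group (-0.81, -1.03 and -0.91), Fip1l1 in TF groups 2 and 3 (-0.71 and -0.67) and Cpsf2 in TF groups 1 and 2 (-0.63 and -0.72).

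**Figure D5:**
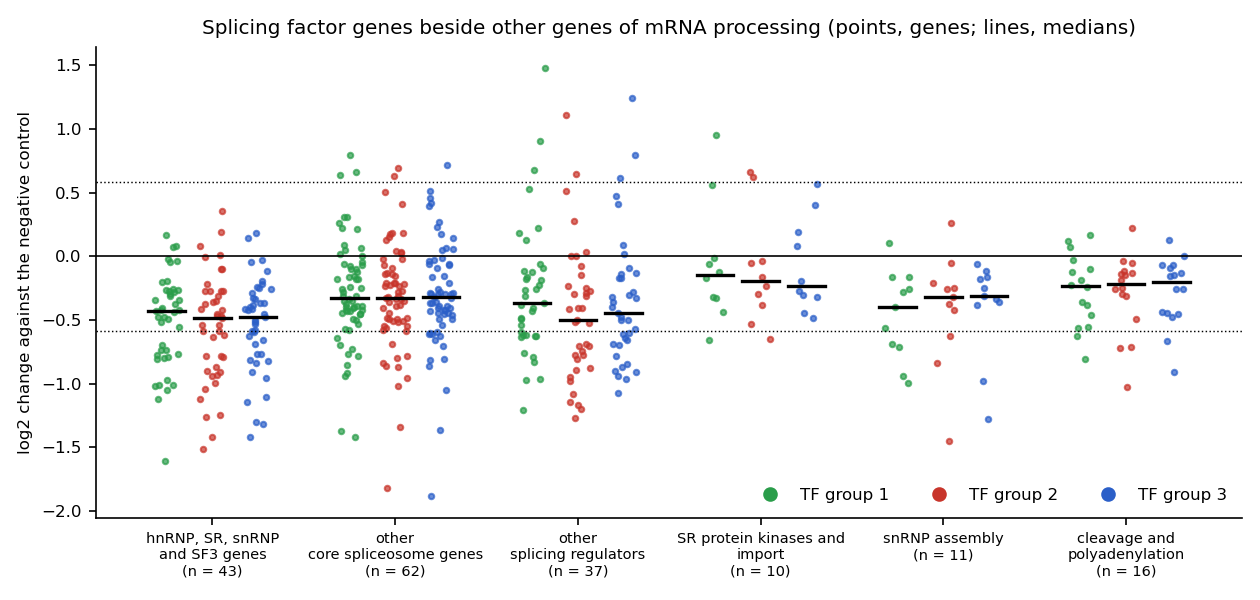
Log2 change against the negative control (vertical axis) of 43 splicing factor genes, Snrpn left out, and of the genes of 5 other lists of mRNA processing (points, genes; black lines, medians; colours, TF groups; dotted lines, a fold change of 1.5). All medians lie below 0, and the lists hold single genes on both sides of it.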

How the data were processed

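The 12 arrays read amplified total RNA of whole cultures with mouse probe sets near the 3′ ends of transcripts. The authors deposited 1 linear intensity per probe set and array, with a trimmed mean shared by all arrays. The submitters' processing notes name RMA and Partek without versions, and since RMA gives log2 values, the method behind this intensity is not known. The signals were taken to log2 in R 4.3.3. The 64 control probe sets were left out of the tests. The suffix _x_at or _s_at of a probe set says that its probes can match several transcripts, so that genes read there, Hnrnpa1, Hnrnpab and Hnrnpf among them, may include signal of relatives.

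Limma 3.58.1 (lmFit, then contrasts and eBayes) was run over all 22626 probe sets and 12 arrays with 1 mean per group and no covariate. P-values were adjusted by Benjamini and Hochberg over all probe sets, and calls needed a fold change of more than 1.5 at an adjusted p under 0.05. Comparisons were of the TF groups against the negative control and between TF groups. The steps were run on simulated data with shifts placed in TF group 1 alone, and only the largest shift was checked for its calls. This does not test calls of smaller changes.

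The members and gene lists were chosen with earlier results of these data known, so the lists are no independent evidence of a direction. Lists covered other core spliceosome genes, other splicing regulators, SR protein kinases and import, snRNP assembly, cleavage and polyadenylation, and markers of fibroblasts, macrophages, endothelium, epithelium, cardiomyocytes and dividing cells. Members named by rule were the 12 with the lowest and the 6 with the highest mean change among called members, those called higher, those called between TF groups, the 3 brightest and those called in opposite directions at different probe sets. The other members, such as Hnrnpm, Srsf4 and Sf3b1, are named to account for all 44 and were taken up after their values were seen. For each pathway list up to 3 called genes per direction are named, and Phf5a was added for its role.

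Promoter windows came from RefSeq (GRCm38.p6) by gene ID, with 39 of 44 matched. Alternatives were an intensity trend, array weights, the unmoderated model with unadjusted p that the methods name, only the groups compared, a replicate block, other scalings, an offset of 32, a filter on low signal, other thresholds, other gene tables, and each array left out in turn.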

Additional observations from a re-analysis of the deposited data

Results flagged for a closer look

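At the adjusted p alone, without the fold threshold, 4 differences of single genes between TF groups passed. They are given as values. Hnrnpd had a log2 difference of -0.298 for TF group 2 against TF group 1 (SE 0.0757, limma adjusted p of 0.0485), and with each of the 12 arrays left out in turn the difference ran from -0.338 to -0.229 and passed in 2 of 12 fits. Snrpb2 had -0.244 for TF group 3 against TF group 2 (SE 0.0582, adjusted p of 0.0329), with a range of -0.275 to -0.226 and 6 of 12 fits passing. Hnrnpll had 0.284 for TF group 3 against TF group 1 (SE 0.0779, adjusted p of 0.0419), with a range of 0.208 to 0.333 and 3 of 12 fits passing. Sf3a3 had -0.279 for the same groups (SE 0.0702, adjusted p of 0.0291), with a range of -0.327 to -0.214 and 8 of 12 fits passing. All 4 kept their direction in the 12 fits. For Hnrnpll the second probe set, at -0.47, -0.35 and -0.31 in TF groups 1, 2 and 3 against the control, had the same order of groups.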

How the results depend on the processing

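The counts of genes called lower (15, 18 and 17 in TF groups 1, 2 and 3, 14 in all 3) moved by more than 1.5 times with the spike scaling (43, 41, 43 and 41), with no fold threshold (36, 36, 36 and 36) and with a fold over 2 (6, 6, 5 and 5). The other alternatives kept them within 1.5 times. With single arrays left out they ran from 15 to 16, 17 to 19, 14 to 18 and 13 to 15. Genes called higher numbered 0, 0 and 1, and 0 to 1 in each comparison with single arrays left out. Snrpn was the gene that came and went, and in TF group 3 it was not called with only the groups compared, with the spike scaling or without probe sets under a log2 signal of 7 (0 genes each). With no fold threshold 1 and 2 genes were higher in TF groups 2 and 3, and 1, 1 and 2 differed between TF groups (TF group 2 against 1, 3 against 2 and 3 against 1) in place of 0. The median changes became -0.556, -0.582 and -0.579 with arrays centred on the median and -1.32, -1.22 and -1.26 with the spike scaling, and ran from -0.453 to -0.402, -0.501 to -0.477 and -0.497 to -0.451 with single arrays left out. Snrpd3 turned to 0.00997 and 0.103 in TF groups 1 and 2 as the mean of its probe sets, of which the dim ones had changes of 0 or above. Of the values of the members named by rule under all alternatives, 1535 kept direction and call, 51 gained a call, 47 lost one and 2 reversed. The cause of the other changes was not tested.

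Whether the replicate numbers pair the arrays is not settled by these values. Correlations of same-numbered arrays, as deviations from the group means, ran from -0.023 to 0.0512 over 18 pairs, with a mean of 0.00995. Those of arrays with different numbers in different groups ran from -0.0427 to 0.0349, with a mean of -0.00497. Of the 12 arrays, 6 correlated best with their own number. With the replicate block, 15, 18 and 17 genes were called lower, 0, 0 and 1 higher, 14 lower in all 3 TF groups and 0 between TF groups. Of the 4 differences between TF groups at the adjusted p alone, that of Hnrnpll lost its call with the block (adjusted p of 0.0858) and those of Hnrnpd, Snrpb2 and Sf3a3 kept theirs (0.0476, 0.0399 and 0.0311). Signals below 32 limit what can be said of Snrpn.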
